A study of Mus musculus with 8 samples.

Results

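RNA levels of 9 interleukin 1 and inflammasome genes were followed in mouse bone marrow cells sorted for CD11c, an integrin of dendritic cells that part of the macrophages also carry. The 9 members, all of them among the 11756 genes of the table, were taken by gene symbol: the cytokines Il1a, Il1b and Il18, the antagonist Il1rn, the decoy receptor Il1r2, and the inflammasome genes Nlrp3, Pycard, Casp1 and Gsdmd. Cells of C57BL/6 mice, isolated by flow cytometry from femurs and tibias, were exposed on culture day 6 for 24 h to acetylated low density lipoprotein (acLDL; 4 libraries) or were left without it (control; 4 libraries). acLDL enters cells through scavenger receptors, and the series' design text names it as a stand-in for an atherosclerotic environment. The values are a normalized signal in the authors' own scale, with no value between 0 and 5. The labels do not say whether replicate libraries stem from separate mice or cultures, and the p-values below reflect only how far these libraries vary, which may be technical. Libraries of 1 group differed widely: acLDL library 1 resembled the controls, and acLDL libraries 2 and 3 stood farthest from them. Results are therefore given with and without these libraries.

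Interleukin 1 alpha and beta are inflammatory cytokines that act through one receptor, IL1R1, and its co-receptor. The antagonist encoded by Il1rn occupies that receptor without signalling, and the receptor encoded by Il1r2 binds interleukin 1 without passing a signal on. IL-1 beta and IL-18 are made as inactive precursors: the sensor NLRP3 assembles with the adaptor ASC, encoded by Pycard, and caspase 1 to cut them, and cut gasdermin D, encoded by Gsdmd, opens pores through which they leave. In macrophages, transcription of Il1b and Nlrp3 is commonly raised by NF-kB signalling before assembly, and cholesterol crystals are among the known triggers of NLRP3. RNA levels say nothing of cutting or release.

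Il1rn was higher in acLDL libraries and Il1b was lower, while Pycard had nearly the same mean in both groups. Il1rn was the 1 member whose groups did not overlap, a separation seen in 5.64% of all tested genes. Il1b, Il1r2, Nlrp3, Casp1 and Gsdmd were each below every control in acLDL libraries 2, 3 and 4, and acLDL library 1 was not; 18.9% of all tested genes were below every control in those 3 libraries. In bulk RNA, fewer cells of a type and less RNA per cell cannot be told apart. No member passed the threshold of 0.05 for the adjusted p, and neither did any of the 10091 genes tested (0%) with limma on log2(value + 5), where the smallest adjusted p was 0.298. An unadjusted p under 0.05 was reached by 1650 genes, or 16.4% of those tested. Of the 8 members tested, Il1rn was among the higher ones (7.42% of all genes) and Il1b, Nlrp3, Casp1 and Gsdmd among the lower ones (8.93%). Il18 did not reach a value of 10 in 4 libraries and was not tested. Nlrp3, Casp1, Gsdmd and Il1r2 had fewer than 4 acLDL libraries at 10 or more and all 4 controls there, so the controls alone let them into the test and these counts are a description.

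**Figure D1:**
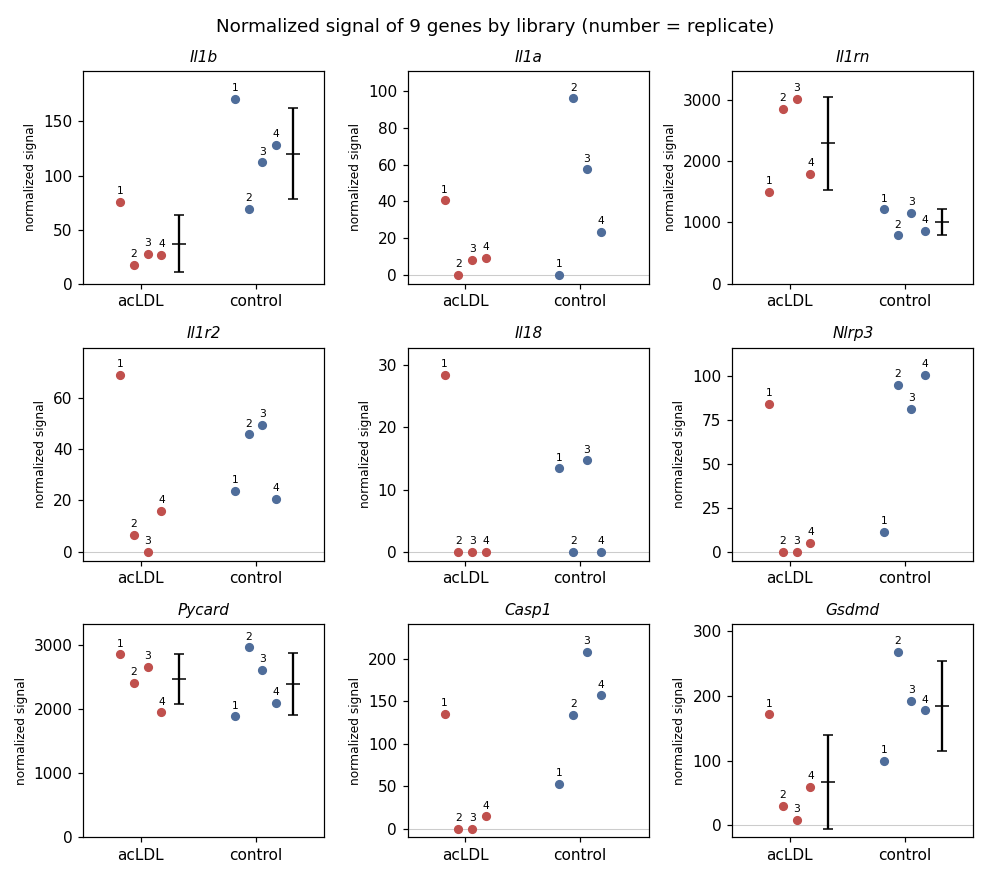
Normalized signal of each of the 9 genes (vertical axes, the authors' scale, starting at or below 0) in the acLDL libraries, at left in each panel, and the controls. Points are libraries with their replicate number, and the black mark gives the mean with its SD for the genes above 0 in all libraries. All 4 acLDL points of Il1rn, from 1497 to 3015, stand above every control, whereas for Il1b, Nlrp3, Casp1 and Gsdmd acLDL library 1 stands apart from acLDL libraries 2, 3 and 4.

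Il1b, the gene of the secreted inflammatory cytokine (chromosome 2, 129364570 to 129371139, minus strand, GRCm38), had a normalized signal of 75.7, 17.7, 27.4 and 26.7 in acLDL libraries 1 to 4, against 171, 69.3, 112 and 129 in control libraries 1 to 4. Libraries 2, 3 and 4 with acLDL were below every control, and acLDL library 1 lay just above control library 2, so the groups overlapped in that 1 place. The mean was 36.9 ± 26.3 in acLDL libraries and 120.3 ± 42.0 in control libraries (SD, n = 4 each), a ratio of 0.307. The log2 fold change was -1.69 (SE 0.45) with limma's adjusted p = 0.298, and an exact permutation test over 70 assignments, two-sided, gave p = 0.057. Without acLDL library 1 the log2 fold change was -2.07 with limma's adjusted p = 0.0231, in a fit that called 2190 genes, or 21.7%. Without acLDL library 2, acLDL library 3 or both, it was -1.46, -1.63 and -1.24. Limma's adjusted p was then 0.541, 0.562 and 0.994. By a rough estimate, the lowest value, in acLDL library 2, stands for about 13.5 reads, although the values did not allow reads to be recovered.

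Il1a, whose product also acts inside the cell and at its surface, lies beside Il1b (chromosome 2, 129299610 to 129309972, minus strand). It had 40.6, 0, 8.10 and 9.33 in the acLDL libraries, against 0, 96.1, 57.3 and 23.5 in the controls. Control library 1 was listed at 0 and the groups overlapped across most of their range. The log2 fold change was -1.10 (SE 1.005) with limma's adjusted p = 0.509, a difference within the spread between libraries. Without control library 1 it was -1.97 (limma's adjusted p = 0.234), and without control library 2 it was -0.53, while leaving out acLDL library 1 gave -1.65 and acLDL library 2 -0.59.

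Il1rn, the antagonist gene (chromosome 2, 24336853 to 24351494, plus strand), had 1497, 2852, 3015 and 1796 in acLDL libraries 1 to 4, against 1215, 791, 1160.4 and 860.0 in controls. Every acLDL library was above every control, which 3.44% of all tested genes showed in this direction. The mean was 2290.2 ± 756 in acLDL libraries and 1007 ± 212 in control libraries (SD, n = 4 each), a ratio of 2.28. The log2 fold change was 1.14 (SE 0.28) with limma's adjusted p = 0.298. In the exact permutation test p was 0.029, the smallest that 70 assignments allow, without adjustment. Without acLDL library 1 the log2 fold change was 1.33 and limma's adjusted p = 0.0238, in the fit that called 21.7% of all tested genes. Without acLDL library 2, acLDL library 3 or both, it was 1.02, 0.99 and 0.73. Limma's adjusted p was then 0.541, 0.562 and 0.994. This gene had the smallest unadjusted p of the members, and stood at place 49 among all tested genes.

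Because one library's scaling touches both genes alike, the ratio of Il1rn to Il1b within a library was also taken, as a log2 ratio of the values plus 5. It was 4.22, 6.97, 6.54 and 5.83 in acLDL libraries 1 to 4, against 2.79, 3.42, 3.31 and 2.69 in the controls. All 4 acLDL libraries were above all 4 controls, also acLDL library 1, which resembled the controls for most other members. The mean log2 ratio was 5.89 ± 1.21 in acLDL libraries and 3.06 ± 0.36 in control libraries (SD, n = 4 each), a difference of 2.83. The ratio was formed from members already known to differ and is given without a test.

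**Figure D2:**
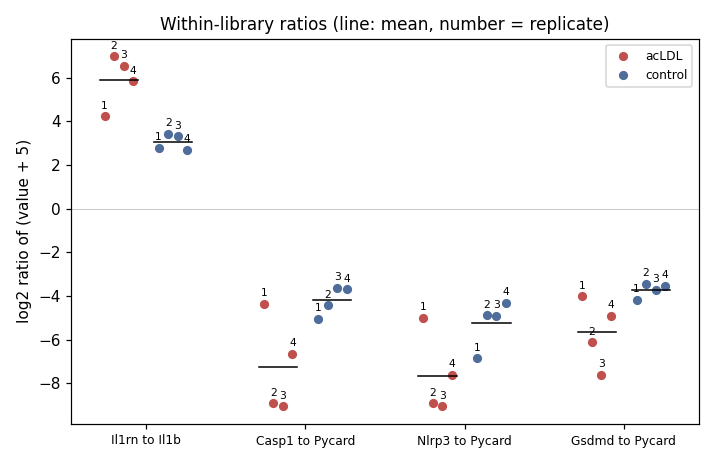
Log2 ratio of 2 genes within each library (vertical axis, values plus 5), with acLDL at left of each pair and control at right; points are libraries with their replicate number and lines are means. The ratio of Il1rn to Il1b runs from 4.22 to 6.97 in acLDL libraries and from 2.69 to 3.42 in controls, while in the ratios to Pycard acLDL library 1 lies among or near the controls.

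The start regions of Il1b and Il1rn are shown because their means differed in opposite directions, and that of Nlrp3 because it is the sensor of the set. Each window holds the 250 bases before a transcription start in RefSeq, on GRCm38.p6 and read 5′ to 3′ on the gene's strand; 8 of the 9 members had at least 1 window, in all 11, and Gsdmd had none in the table. The windows are chr2:129371140-129371389 (minus strand) for Il1b, chr2:24336610-24336859 and chr2:24345041-24345290 (plus strand) for an upstream and a downstream start of Il1rn, chr2:24345121-24345370 (plus strand) for a further downstream start whose window overlaps the previous one, and chr11:59541319-59541568 (plus strand) for the upstream of the 2 starts of Nlrp3. Capitals mark matches, on either strand, to letters used for NF-kB (GGGNN followed at once by TTNCC), C/EBP (TTNNGNAA), AP-1 (TGANTCA), PU.1 (GAGGAA) and the TATA box (TATAAA).
Il1b: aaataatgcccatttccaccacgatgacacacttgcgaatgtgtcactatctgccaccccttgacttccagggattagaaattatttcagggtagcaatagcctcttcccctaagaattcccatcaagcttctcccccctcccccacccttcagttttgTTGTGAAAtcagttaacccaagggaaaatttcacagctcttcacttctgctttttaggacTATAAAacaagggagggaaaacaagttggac
Il1rn upstream: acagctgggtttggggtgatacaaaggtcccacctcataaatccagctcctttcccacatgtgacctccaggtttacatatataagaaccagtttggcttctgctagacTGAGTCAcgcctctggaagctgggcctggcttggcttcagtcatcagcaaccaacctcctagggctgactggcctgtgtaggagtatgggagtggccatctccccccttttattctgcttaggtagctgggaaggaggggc
Il1rn downstream: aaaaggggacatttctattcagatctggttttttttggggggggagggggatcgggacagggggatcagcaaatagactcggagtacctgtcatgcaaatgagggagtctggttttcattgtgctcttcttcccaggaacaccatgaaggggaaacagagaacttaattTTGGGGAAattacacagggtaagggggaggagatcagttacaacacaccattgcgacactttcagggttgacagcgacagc
Il1rn further downstream: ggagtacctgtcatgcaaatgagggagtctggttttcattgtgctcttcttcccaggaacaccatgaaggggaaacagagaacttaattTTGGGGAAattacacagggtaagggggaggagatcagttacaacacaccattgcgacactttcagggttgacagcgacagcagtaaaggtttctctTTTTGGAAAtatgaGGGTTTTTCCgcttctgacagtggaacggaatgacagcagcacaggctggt
Nlrp3: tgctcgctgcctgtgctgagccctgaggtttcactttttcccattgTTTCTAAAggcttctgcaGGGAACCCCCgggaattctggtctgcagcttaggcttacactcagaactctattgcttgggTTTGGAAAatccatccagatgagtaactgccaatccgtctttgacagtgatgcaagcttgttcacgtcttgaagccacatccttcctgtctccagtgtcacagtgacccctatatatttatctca
The Il1b window holds a TATA box match starting at base -31 from the start, which 12.4% of the 32851 windows of all genes hold somewhere, and a C/EBP match at base -91, which 36.8% hold. The upstream window of Il1rn holds an AP-1 match at base -141 (6.7% of all windows), and its downstream window a C/EBP match at base -81. The further downstream window of Il1rn holds the same C/EBP letters at base -161, an overlapping pair of C/EBP matches at bases -65 and -64, and an NF-kB match at base -51. The Nlrp3 window holds an NF-kB match on the opposite strand at base -186 (4.1% of all windows) and C/EBP matches at bases -204 and -125. The other Nlrp3 window, chr11:59542436-59542685 and not printed, has no NF-kB match but holds PU.1 matches at bases -220, -129 and -36 (23.3% of all windows hold one) and a C/EBP match at base -23. Letters of different motifs overlap in none of these windows. The table sums all starts of a gene, so which start of Il1rn or Nlrp3 was in use is not shown by these values.

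Il1r2, the decoy receptor gene (chromosome 1, 40074079 to 40125231, plus strand), had 68.8, 6.63, 0 and 15.8 in the acLDL libraries, against 23.6, 45.7, 49.4 and 20.7 in controls. The highest value of all 8 libraries was in acLDL library 1, and the other acLDL libraries were below every control. The log2 fold change of -1.13 (SE 0.78, limma's adjusted p = 0.395) was therefore an average of libraries that went apart. Without acLDL libraries 2 and 3 it was 0.06.

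Il18, a cytokine that drives interferon gamma in lymphocytes (chromosome 9, 50554827 to 50581840, plus strand), was at the edge of detection in both groups. It had 28.4 in acLDL library 1 and was listed at 0 in the other acLDL libraries, against 13.4, 0, 14.7 and 0 in the controls. No difference was detectable at these levels. It is also the one member whose longest coding transcript, at 885 nt, is under 1000 nt.

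Of the inflammasome genes, Pycard did not go with the other 3. Pycard, the adaptor (chromosome 7, 127989708 to 127993867, minus strand), had 2851, 2411, 2654 and 1949.8 in the acLDL libraries, against 1889, 2963, 2610.3 and 2095 in controls. The groups covered nearly the same range, with a mean of 2466 ± 389 in acLDL libraries and 2389 ± 488 in control libraries (SD, n = 4 each) and a log2 fold change of 0.05 (SE 0.21, limma's adjusted p = 0.887). The standard error was wider for the other 3 inflammasome genes, from 0.71 to 1.02.

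Nlrp3, the sensor (chromosome 11, 59541568 to 59566956, plus strand), had 84.1, 0, 0 and 5.02 in the acLDL libraries, against 11.3, 95.0, 81.3 and 100.7 in controls. Values were thus low in acLDL libraries 2, 3 and 4 and also in control library 1, and acLDL library 1 was among the other controls. On the log2 scale the difference was -2.35 (SE 1.01) with limma's adjusted p = 0.298.

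Casp1, the protease (chromosome 9, 5298517 to 5307265, plus strand), had 134.7, 0, 0 and 14.4 in the acLDL libraries, against 52.5, 134.0, 208 and 157 in controls. The order of the libraries resembled that of Nlrp3, with control library 1 the lowest control. Its difference on the log2 scale was -2.998 (SE 1.02), and limma's adjusted p was 0.298. Being listed at 0 in acLDL libraries 2 and 3 and above 0 in all controls, as Nlrp3 and Casp1 were, applied to 542 tested genes, or 5.37%.

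Gsdmd, the pore protein gene (chromosome 15, 75862327 to 75867408, plus strand), had 172, 29.7, 8.70 and 59.6 in the acLDL libraries, against 99.9, 269, 193 and 177 in controls. Only acLDL library 1 reached the range of the controls. The mean was 67.4 ± 72.6 in acLDL libraries and 185 ± 69.1 in control libraries (SD, n = 4 each), and the log2 fold change was -1.89 (SE 0.71) with limma's adjusted p = 0.298. Without acLDL library 1 limma's adjusted p was 0.0267 for Nlrp3, 0.0224 for Casp1 and 0.0263 for Gsdmd, in a fit that called 21.7% of all tested genes. That library resembled the controls, so leaving it out widens the difference, and these values are a description. Without acLDL libraries 2 and 3 limma's adjusted p was 0.994 for each of these genes.

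These values went along with a difference between libraries that was seen within each group and also between the groups. Its measure here is the short-transcript index, the mean log2 deviation of 489 tested genes with a short longest coding transcript (under 1000 nt). The index was 1.11, -1.36, -2.25 and -0.30 in acLDL libraries 1 to 4, against 0.06, 0.94, 1.08 and 0.72 in controls. Its mean was -0.70 ± 1.45 in acLDL libraries and 0.70 ± 0.45 in control libraries (SD, n = 4 each). The number of tested genes listed at 0 was 233, 1217, 1639 and 469 in the acLDL libraries, against 593, 544, 153 and 365 in controls. Gsdmd, Casp1 and Nlrp3 were lowest where the index was lowest, in both groups, although their longest coding transcripts have 1792, 1497 and 4021 nt. Il1rn went the other way and was highest where the index was lowest, with 3015 in acLDL library 3 and 1215 in control library 1. Il1b was highest among controls in control library 1 (171) and lowest among acLDL libraries in acLDL library 2 (17.7). Over all tested genes, 14.0% were above every control in acLDL libraries 2, 3 and 4.

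**Figure D3:**
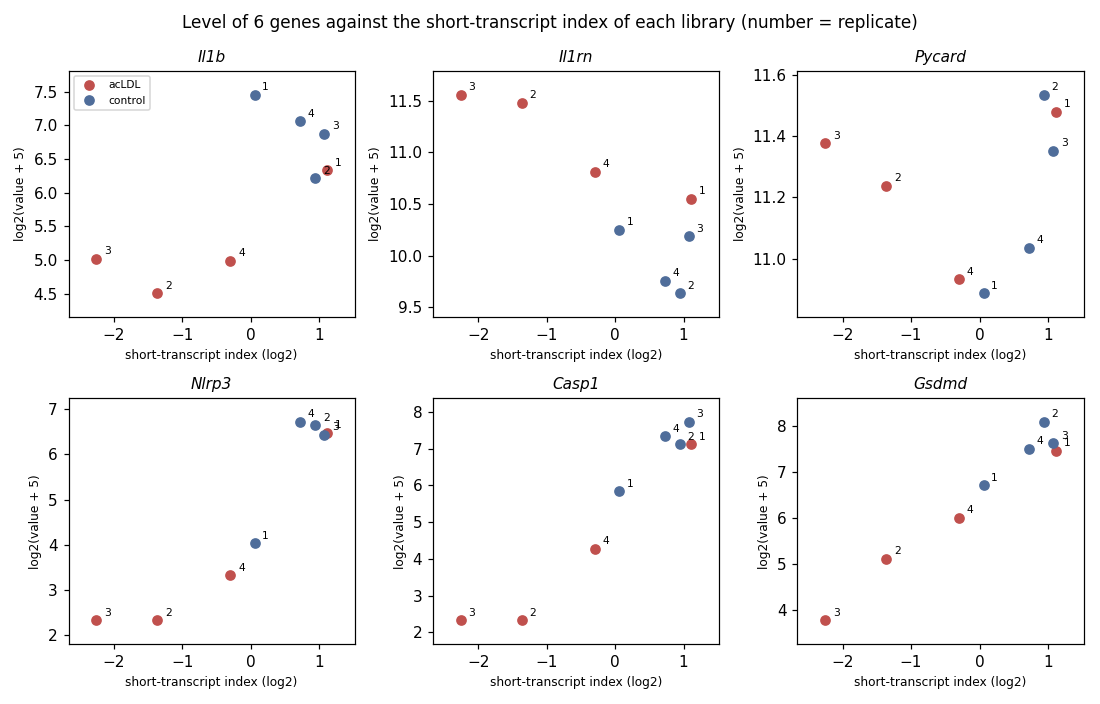
Log2(value + 5) of 6 genes (vertical axes) against the short-transcript index of each library (horizontal axes, log2), in acLDL libraries and control libraries as points and their replicate numbers. Within each group Nlrp3, Casp1 and Gsdmd are lowest, and Il1rn is highest, in the library of lowest index. Pycard is lowest there only among the controls. At similar index values Il1b is lower and Il1rn higher in acLDL library 4 than in control library 1.

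With the index as a covariate, the log2 fold change was -1.25 (SE 0.49) for Il1b and 0.69 (SE 0.20) for Il1rn, and -0.86 (SE 0.46) for Casp1. It was -0.42 (SE 0.66) for Nlrp3, -0.40 (SE 0.28) for Gsdmd and 0.14 (SE 0.23) for Pycard, and it turned positive for Il1a, at 0.26 (SE 1.01), and for Il1r2, at 0.41 (SE 0.43). None passed limma's threshold in that fit either. Since each control exceeded acLDL libraries 2, 3 and 4 in this index, the part of it due to the treatment and the part due to preparation cannot be told apart, and the covariate may remove an effect of acLDL. The libraries nearest in index can be set side by side, a pairing chosen after the values were seen. In acLDL library 1 and control library 3, Il1rn had 1497 and 1160.4, Il1b 75.7 and 112, Casp1 134.7 and 208, Nlrp3 84.1 and 81.3, and Gsdmd 172 and 193. In acLDL library 4 and control library 1, Il1rn had 1796 and 1215, Il1b 26.7 and 171, Casp1 14.4 and 52.5, Nlrp3 5.02 and 11.3, and Gsdmd 59.6 and 99.9. Il1rn was thus higher, and Il1b, Casp1 and Gsdmd lower, in the acLDL library of both pairs. In the second pair the acLDL library also had the lower index, -0.30 against 0.06. The choice of pair matters for Il1b and Casp1. Against control library 2 (index 0.94), acLDL library 1 was slightly higher for Il1b (75.7 and 69.3) and Casp1 (134.7 and 134.0). Il1rn (1497 and 791) stayed higher there and Gsdmd (172 and 269) lower.

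**Figure D4:**
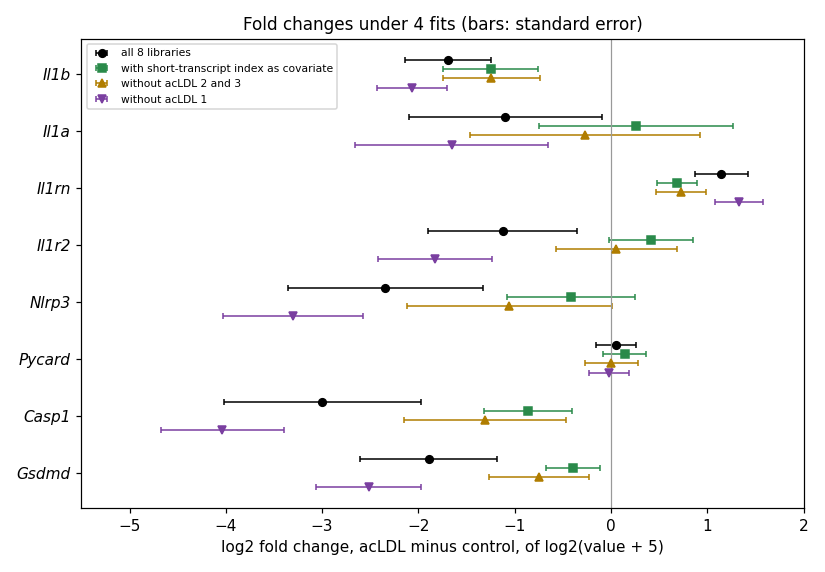
Log2 fold change, acLDL minus control, of log2(value + 5) for the 8 tested genes (horizontal axis) in limma fits with all 8 libraries, with the short-transcript index as a covariate, without acLDL libraries 2 and 3, and without acLDL library 1; bars are standard errors. Il1rn stays between 0.69 and 1.33 and Il1b between -2.07 and -1.24 in these fits, Casp1, Nlrp3 and Gsdmd lie nearer to 0 with the covariate and without acLDL libraries 2 and 3, and Pycard stays between -0.02 and 0.14.

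Markers of the cell types that carry these genes also differed between libraries. Of 20 neutrophil and granulocyte markers 16 were listed, with a summed signal from 8801 to 19645 in acLDL libraries and from 12089 to 21659 in controls. The mean log2 value was lower with acLDL for 13 of them and higher for 3, Ltf, Mmp8 and Mmp9; Mmp8 averaged 7772 in acLDL libraries and 6990 in controls. The 6 markers Camp, Retnlg, Csf3r, Prtn3, Wfdc21 and Chil3 were listed at 0 in acLDL libraries 2 and 3, Csf3r also in control library 1. The 9 listed monocyte markers of 10 summed to 1246 to 2924 in acLDL libraries and 2462 to 3507 in controls; Ly6c2 and Plac8 were at 0 in acLDL libraries 2 and 3, and Plac8 also in acLDL library 4 and control library 1. The 13 listed macrophage markers of 14 summed to 14406 to 19351 in acLDL libraries and 14326 to 17060 in controls. Of these 4 were higher (Csf1r, Fcgr1, Mertk and Trem2) and 9 lower, with Csf1r at 7058 on average in acLDL libraries and 4311 in controls, and Adgre1 and Cd14 at 0 in acLDL libraries 2 and 3. All 14 dendritic cell markers were listed and summed to 864 to 15697 in acLDL libraries and 5299 to 14195 in controls. Of the 12 tested, Irf4 and Xcr1 were higher and 10 lower, and Batf3 was at 0 in acLDL libraries 2 and 3. None of the markers passed limma's adjusted threshold, and 55.7% of all tested genes were lower. With the index as a covariate, 9 neutrophil and granulocyte markers were higher and 7 lower (median log2 fold change 0.0075, against -1.55 without it). Dendritic cell markers were then 6 higher and 6 lower (-0.0080, against -1.56). Macrophage markers were 4 higher and 9 lower (-0.037, against -1.2). Monocyte markers were 4 higher and 5 lower, and their median moved away from 0 (-0.216, against -0.034). Some markers, such as S100a8 (486 nt) and Wfdc21 (434 nt), are themselves short transcripts. Itgax, the gene of CD11c itself, ranged from 0 to 189 over the acLDL libraries, against 81.5 to 195 over the controls. The part of these markers in the members' values was not tested.

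Of 60 further genes of the interleukin 1 and inflammasome pathways, 47 were listed and 42 tested, and none passed limma's adjusted threshold. Their mean log2 value was higher with acLDL for 15 and lower for 27, with a median log2 fold change of -0.24, against -0.13 over all tested genes, of which 5618 or 55.7% were lower. With the index as a covariate the medians were 0.01 for both.

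Among cytokines, receptors and decoys, Il36g, an interleukin 36 cytokine gene, had 139, 95.2, 144 and 43.0 in the acLDL libraries, against 47.5, 46.7, 64.2 and 80.4 in control libraries (log2 fold change 0.67 with SE 0.40, adjusted p = 0.346 in limma). Il18bp, whose product traps IL-18, had 426, 980.1, 755 and 645 in the acLDL libraries, against 583, 371, 388 and 446.5 in controls. The fold change on the log2 scale was 0.60 (SE 0.28), and with the index as a covariate it was 0.16. Il1rl1, the receptor gene of interleukin 33, averaged 67.1 ± 18.1 in acLDL libraries and 42.2 ± 7.65 in control libraries (SD, n = 4 each). Il1r1, the signalling receptor of interleukin 1, was low and similar, with 24.8 to 49.3 in the acLDL libraries and 25.7 to 54.9 in control libraries (log2 fold change -0.22, SE 0.35). Its co-receptor gene Il1rap was listed between 0 and 28.5 in acLDL libraries and between 0 and 20.1 in controls and was not tested. Of the 6 receptor and decoy genes tested, 4 had a higher and 2 a lower mean log2 value; for Il18r1, one of the 4, the mean signal itself was lower, with a ratio of 0.875.

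In the signalling chain below the receptor, 4 of 11 tested genes had a higher and 7 a lower mean log2 value, and 7 were higher and 4 lower with the covariate. The kinase gene Irak1 had 268, 399.8, 492 and 352 in the acLDL libraries, against 249, 218, 259.6 and 212 in controls, with no overlap (log2 fold change 0.65 with SE 0.23, adjusted p = 0.298 in limma; 0.33 after the covariate). Peli2, a ubiquitin ligase gene named here because it was the other gene of the chain without overlap, had 169 to 221 in the acLDL libraries and 118 to 149.9 in controls. Its relative Peli1 had 390, 281, 104 and 164 in the acLDL libraries, against 373, 458, 317 and 401 in control libraries (log2 fold change -0.87, SE 0.38). The adaptor gene Myd88 had 174, 10.5, 0 and 23.0 in the acLDL libraries, against 29.9, 137, 125 and 165 in controls. Its order of libraries was like that of Nlrp3, and its log2 fold change went to 0.10 with the covariate, against -2.04 without it.

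Among other inflammasome sensors, 2 of 6 tested had a higher and 4 a lower mean log2 value. Aim2, a sensor of DNA in the cytosol, had 28.9, 103, 147 and 144 in the acLDL libraries, against 42.5, 27.9, 37.9 and 45.0 in controls. Its acLDL library 1 lay among the controls and the log2 fold change of 1.16 (SE 0.49) was 0.39 with the covariate. Naip5, a sensor of bacterial flagellin whose near copies make its level uncertain, averaged 21.0 ± 13.3 in acLDL libraries and 50.3 ± 24.4 in control libraries (log2 fold change -1.10, SE 0.47). Nlrc4, which acts with the Naip proteins, averaged 104 ± 36.8 in acLDL libraries and 109.8 ± 19.1 in controls.

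Among other caspases and pore genes, Casp4, a sensor of cytosolic endotoxin that can cut gasdermin D, had 35.0, 11.3, 0 and 15.9 in the acLDL libraries, against 68.5, 57.4, 61.7 and 53.5 in controls. All acLDL libraries were below all controls, as in 2.20% of tested genes. Its difference on the log2 scale was -2.01 (SE 0.60, limma's adjusted p = 0.298), and -0.99 after the covariate. Casp8, a caspase of death receptor signalling, had 1291, 3381, 5260.2 and 5024 in the acLDL libraries, against 1353, 1318, 1702 and 1342 in controls. Libraries 2, 3 and 4 with acLDL were above every control and acLDL library 1 was below them, with a log2 fold change of 1.20 (SE 0.41) that was 0.57 with the covariate. Gsdme, another gasdermin gene, averaged 100.3 ± 9.38 in acLDL libraries and 122 ± 19.97 in controls.

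Among inflammasome regulators, 2 of 13 tested had a higher and 11 a lower mean log2 value, beside 55.7% lower over all tested genes. With the index as a covariate 7 were higher and 6 lower, and their median log2 fold change was 0.0089, against -0.59 without it. Xiap, an inhibitor of caspases, had 40.7, 33.8, 34.2 and 51.7 in the acLDL libraries, against 68.3, 76.2, 92.1 and 65.7 in controls, with no overlap (log2 fold change -0.84 with SE 0.27, adjusted p = 0.298 in limma; -0.68 after the covariate). Trim30a, reported in mouse cells to restrain NLRP3, averaged 79.1 ± 17.97 in acLDL libraries and 120.1 ± 16.9 in control libraries (log2 fold change -0.59, SE 0.25). Nek7, the kinase that binds NLRP3, averaged 905 ± 90.1 in acLDL libraries and 1000.3 ± 104 in control libraries (log2 fold change -0.14, SE 0.16).

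**Figure D5:**
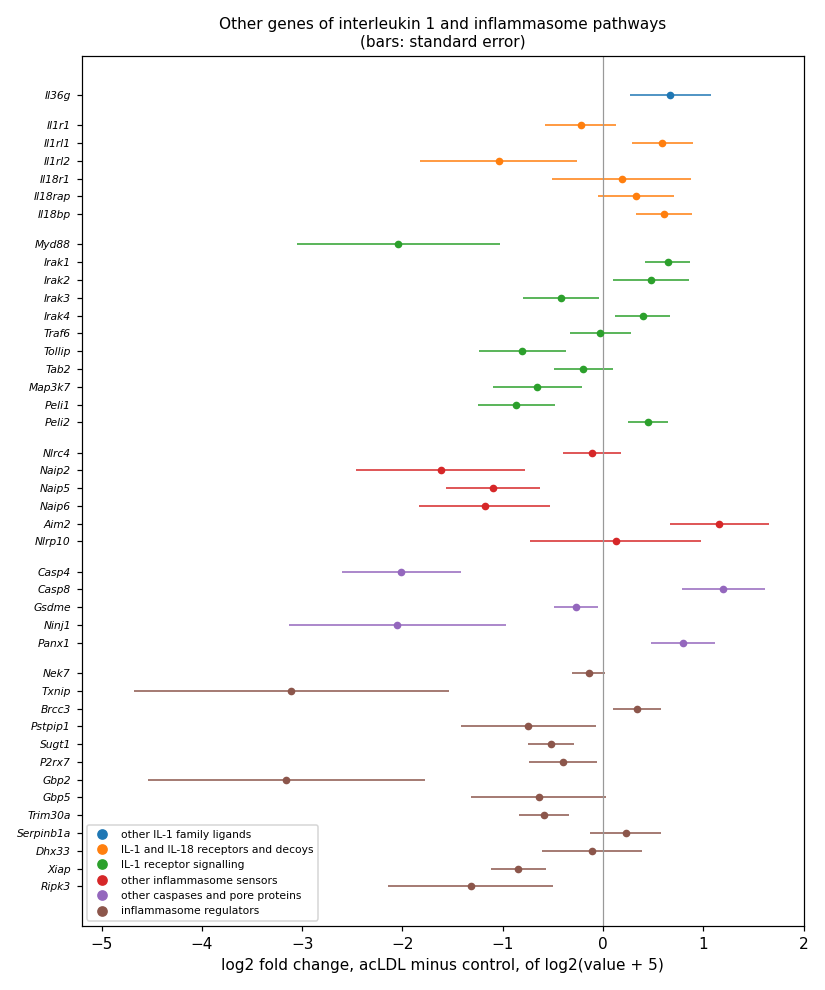
Log2 fold change, acLDL minus control, of log2(value + 5) (horizontal axis) for the 42 tested genes of 6 lists of the pathways, from the fit with all 8 libraries; points are genes coloured by list and bars are standard errors. Of the regulators 11 of 13 lie left of 0, a count that was 6 of 13 with the short-transcript index as a covariate, and Aim2, Casp8, Panx1, Irak1 and Il36g lie farthest to the right.

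The pattern of Il1b over the 8 libraries was most like that of Diaph1, a formin gene of the actin skeleton, among 7240 tested genes above 0 in all libraries. The mean absolute difference of log2 values centred per gene was 0.24 for Diaph1, against a median of 1.001 over those genes. Diaph1 had 781, 155, 259 and 326 in the acLDL libraries, against 976, 781, 881 and 1032 in controls. Next were Arhgap6 (0.28), Dhx38 (0.29), Thyn1 (0.30) and Tpm3 (0.31), all lowest in acLDL libraries 2, 3 and 4. These values over 8 libraries also share the difference between libraries described above.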

How the data were processed

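RNA was sequenced from 4 acLDL and 4 control libraries. The kit, per the labels' protocols, was Lexogen QuantSeq, which reads from the 3' end, although the design text speaks of 5' quantification. The submitters' processing notes name bcl2fastq 2.20, kallisto and mm10 (GRCm38), while annotation, filters and normalization tool are not stated there. The deposited values are a normalized signal in the authors' own scale, although the table is named as raw counts; library totals were 3917426 to 4385051. Between 10.9% and 12.7% of values below 300 were multiples of a step of 0.718 to 1.31 (tolerance 0.01 steps), too few to recover reads, and totals divided by the step estimate 3230000 to 5460000 reads per library. With no counts, no counting interval was computed. As no value lies between 0 and 5, a gene listed at 0 may be a low estimate.

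Genes that reached 10 in 4 or more libraries (10091) entered limma 3.58.1 (R 4.3.3) on log2(value + 5), with trend and robust moderation and group as the only term. The fold change of a low gene is understated on this scale. Benjamini-Hochberg adjustment ran over all tested genes, with a threshold of 0.05. The fit was run on simulated data with added shifts, where only the size of the estimated shift was checked. Rates of false calls are not given. The members and lists were chosen with earlier results of these data known. Genes named are the members, the 2 with the smallest p of each list (none passed), 9 preset pathway genes, the 5 most like Il1b, Peli2, and cell type markers, which like Peli2 were picked after their values were seen. Lengths and coordinates came from GENCODE vM21, start regions from RefSeq. By their deviations from group means, libraries showed no pairing by replicate number, although this check cannot exclude one.

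Alternatives were pseudocounts of 1 and 20, no filter or at least 20 in all 8 libraries, median-of-ratios size factors, quantile normalization, the short-transcript covariate, a replicate block, array weights, leaving out single libraries or acLDL libraries 2 and 3, and an exact permutation test for single genes. One item is not reported here.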

Additional observations from a re-analysis of the deposited data

Results flagged for a closer look

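In the acLDL group, library 1 stood far from the other acLDL libraries for 4 of the 9 members, by a gap beyond the critical value of Dixon's test. These values were 75.7 for Il1b, 28.4 for Il18, 84.1 for Nlrp3 and 134.7 for Casp1, each the highest of the group. For Il18 the other 3 acLDL libraries were all listed at 0, so any listed value in library 1 meets that limit, and for Nlrp3 and Casp1 2 of the other 3 were at 0; these 3 gaps are therefore set in part by the zeros. No control library was so far from its group. For normally distributed values chance flags about 1 in 20 groups. The test was run on the untransformed signal and not on the log2 scale, so this rate may not hold here. The 4 genes share the same library, whose short-transcript index of 1.11 was the highest of all 8.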

How the results depend on the processing

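No gene passed the threshold in limma's fit as designed. Leaving out single libraries, the count ran from 0 to 2190, with 2190 without acLDL library 1 and 0 without any other. With all 8 libraries it was 1957 under array weights and 1 under quantile normalization. The array weight was lowest for acLDL library 1, at 0.342, and highest for control library 3, at 2.807. The fit with array weights is thus not independent of leaving out acLDL library 1. The cause of these counts was not tested. At an unadjusted p under 0.05 the count was 1650 with all libraries, 505 with the short-transcript covariate and 305 without acLDL libraries 2 and 3. Il1b and Il1rn kept their direction under every alternative that tested them, with log2 fold changes from -2.07 to -1.24 and from 0.69 to 1.33, and so did Nlrp3 (-3.56 to -0.42), Casp1 (-4.20 to -0.86) and Gsdmd (-2.52 to -0.40). Pseudocounts of 1 and 20 alone gave -3.56 and -1.35 for Nlrp3 and -4.20 and -1.93 for Casp1. Il1b, Nlrp3, Casp1 and Gsdmd were not tested under the filter of at least 20 in all 8 libraries. Il1rn, Il1b, Nlrp3, Casp1 and Gsdmd passed limma's threshold with array weights and without acLDL library 1 only. Il1a turned to 0.26 and Il1r2 to 0.41 with the covariate, and Il1r2 to 0.056 without acLDL libraries 2 and 3. Pycard turned to -0.15 with array weights and ran from -0.051 to 0.16 when each library was left out. Over all genes, quantile normalization gave a median of 0.15, against -0.13 as deposited, and gave -1.33 for Il1b and 1.11 for Il1rn.

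Same-numbered libraries deviated from their group means with correlations of -0.55, -0.21, -0.28 and 0.03, and 0 of 8 libraries were closest to their own number. With a replicate block 0 genes passed, with 730 at an unadjusted p under 0.05, and Il1rn had limma's adjusted p = 0.483. Values of 0 limit Il18 most, in 5 of the 8 libraries, then Il1a, Nlrp3 and Casp1, each at 0 in 2, and Il1r2, at 0 in 1. The part of sequencing depth in these zeros was not tested.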
